A study of Mus musculus with 6 samples.

Results

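A set of 10 genes that had been reported as targets of miR-182 in other cells was followed in primary white adipocytes: Cttn, Mtss1, Mitf, Fbxw7, Rgs17, Rasa1, Evi5, Bcl2, Ccnd2 and Brca1. They were chosen by name for those reports, at a time when results of these data were already known, and the 10 rows that carry these symbols were taken from the 22609 genes counted in each sample. The cells came from the stromal vascular fraction of inguinal fat, the main subcutaneous depot of the mouse (sWAT), and were differentiated in culture. According to the labels, the donors were male C57BL6 mice aged 3 weeks. There were 3 samples of cells that received a control vector (control) and 3 of cells with miR182 overexpression (miR182), with no other allele or agent named. The labels describe delivery by electroporation, whereas the methods of the study describe a miRNA mimic, a mimic control and a lipid reagent, and mice that were older. Neither source says whether samples of a group came from separate mice or separate cultures, so the p-values measure only the spread between these samples, which may be technical.

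A miRNA guides an Argonaute protein to messenger RNAs, mostly through pairing of its seed, the bases near its 5′ end, with a complementary stretch in the 3′ UTR. The paired transcript is translated less and is degraded faster, so that RNA sequencing sees part of the effect as a lower transcript level. miR-182-5p belongs to the miR-183 cluster, which is best known from sensory organs and from tumors. The 10 genes act in different parts of the cell. Cttn and Mtss1 act on the actin cytoskeleton, Mitf is a transcription factor, Fbxw7 marks proteins for degradation, Rgs17, Rasa1 and Evi5 switch off G proteins and small GTPases, Bcl2 guards against apoptosis, Ccnd2 drives the cell cycle and Brca1 repairs DNA.

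The mature miRNA is shown with its seed, bases 2 to 8, in capitals. It was taken from RefSeq (GRCm38.p6), where it lies at chr6:30165962-30165986 on the minus strand.
miR-182-5p: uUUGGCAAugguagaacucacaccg
In a transcript the match to this seed reads TTGCCAA. Followed by an A it is the 8-base site TTGCCAAA, the class of site that is generally repressed most. The shorter TGCCAAA (bases 2 to 7 and an A) and the 6-base core TGCCAA are weaker classes. The longer matches contain the shorter ones, and each position was counted once, in its longest class, on the transcribed strand alone.

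In the longest annotated 3′ UTR of each gene (GENCODE M21, GRCm38), 6 of the 10 genes held an 8-base site, against 5.25% of the 12495 genes tested that have an annotated 3′ UTR. The match TTGCCAA was present in 8 of the 10, against 12.5% of those genes. The core TGCCAA was present in 9 of the 10, against 34.3%. The 10 genes had been reported as targets, and whether a seed match had entered those reports was not checked. Their 3′ UTRs had 1003 to 7290 bases, beside a median of 1202 over the genes with a 3′ UTR, and longer ones hold more matches. The shares are thus no independent support for a difference from other genes. A match is a description of letters, not a shown binding site. The 7 stretches around the 8-base sites are given first because their 6 genes were the ones with the strongest class of match, with the site in capitals.
Cttn, chr7:144436099-144436128, minus strand: ctgtgttctttTTGCCAAAtatgttcagtt
Mitf, chr6:98020930-98020959, plus strand: accttctgactTTGCCAAAaactgtgcaag
Rgs17, chr10:5832713-5832742, minus strand: gagacaatgaaTTGCCAAAttaagtttgtt
Mtss1, chr15:58941487-58941516, minus strand: aatataaactgTTGCCAAAttcaatgtaga
Rasa1, chr13:85216017-85216046, minus strand: ctcctttgctcTTGCCAAAaagaaaaaaat
Rasa1, chr13:85215752-85215781, minus strand: agtatatccaaTTGCCAAAgttttgctgtc
Evi5, chr5:107748019-107748048, minus strand: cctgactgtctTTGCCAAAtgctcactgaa

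Fbxw7, Bcl2 and Ccnd2 held shorter matches, shown here for contrast. In Fbxw7 the pair of matches starts at bases 588 and 598 of the 3′ UTR, so the printed stretches overlap.
Fbxw7, chr3:84978118-84978146, plus strand: cttttttttttTTGCCAAccattgccaat
Fbxw7, chr3:84978128-84978156, plus strand: tttgccaaccaTTGCCAAtgtcaatcaat
Bcl2, chr1:106542940-106542968, minus strand: cgaaccaggaaTTGCCAAgaaacgtgtgg
Ccnd2, chr6:127126820-127126848, minus strand: ttcccccagccTGCCAAAttttgatcctt
Ccnd2, chr6:127126762-127126790, minus strand: aaaccctagtaTGCCAAAaataatatgct
Brca1 held none of the 4 classes in its 3′ UTR of 1003 bases. No member of the set had the match TTGCCAA in the 5′ UTR or the coding sequence of the transcript used.

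**Figure D1:**
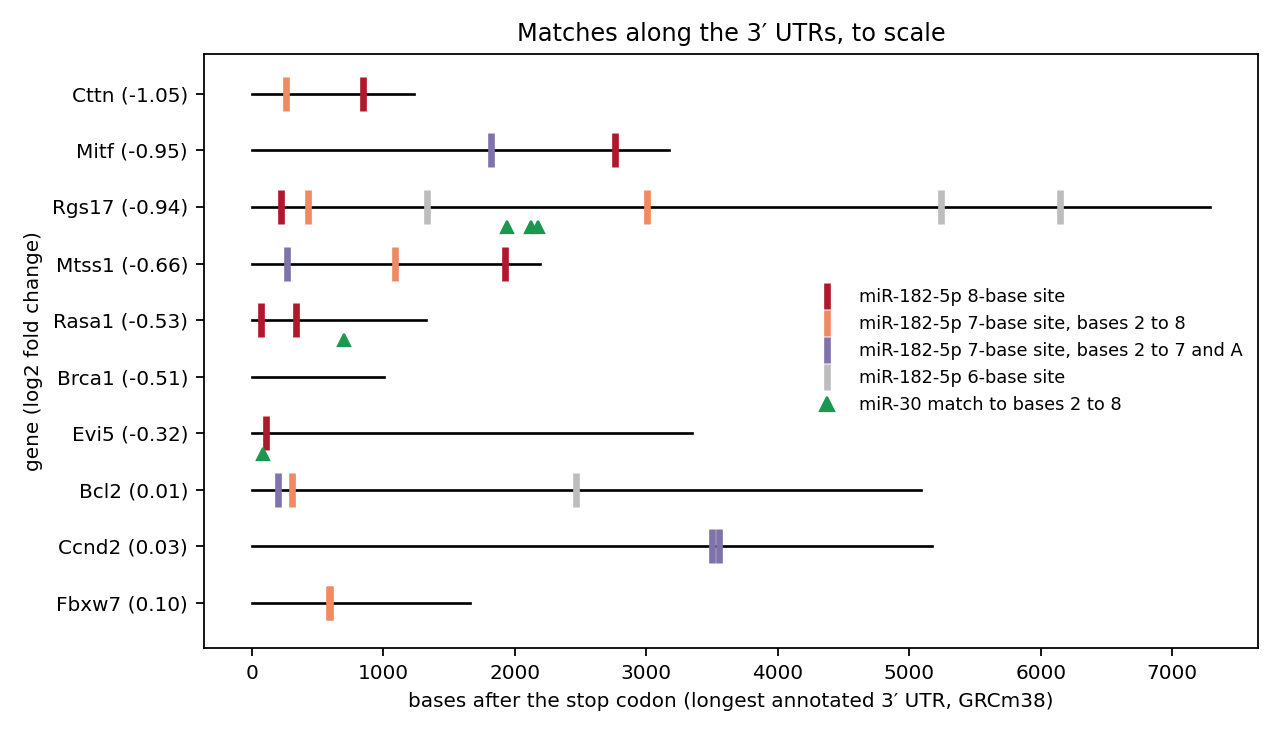
Positions of the matches along the longest annotated 3′ UTR of the 10 genes, drawn to scale, with bases after the stop codon on the x axis. Vertical marks are miR-182-5p matches coloured by class, triangles are matches to the miR-30 seed, and the log2 fold change of each gene stands beside its name. Red 8-base marks appear in Cttn, Mitf, Rgs17, Mtss1, Rasa1 and Evi5, and no mark appears in Brca1.

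Between 25869810 and 28796712 reads per sample were counted on genes, and all 10 genes passed the filter on low counts that left 13117 genes for testing. The row for the Mir182 gene itself held 0 reads in all 6 samples; libraries made from poly(A) RNA do not capture mature miRNAs, so this row is no check of the overexpression. All 8 adipocyte markers on a fixed list were detected, with a summed level of 6989 to 7347 CPM (reads scaled to library size) in control and 5049 to 5655 in miR182, and 5 of the 8 fell while 1 rose. The 8 preadipocyte or fibroblast markers were also all detected, at 40430 to 42240 against 35710 to 36920 CPM, with 5 lower and 1 higher. Pdgfra and Cd34 of this list (log2 fold change -0.86 and -1.53) and Fabp4 of the adipocyte list (-0.68) fell past 1.5-fold. All 6 markers of cycling cells fell, from 184.8 to 196.0 CPM in control to 108.0 to 126.2 in miR182, with Mki67, Top2a and Ccnb1 past 1.5-fold. Markers of other cells were low: macrophage 14.4 to 15.6 CPM against 12.4 to 15.7, endothelial 8.13 to 9.27 against 5.09 to 5.74, melanocyte 2.48 to 3.14 against 2.35 to 2.94 with Tyr and Tyrp1 at 0, mast cell 1.14 to 1.72 against 0.959 to 1.28, lymphocyte at most 0.383 and mammary epithelium at most 0.0766. Within these low lists, Tek (endothelial, log2 fold change -1.31) and Lyz2 (macrophage, -0.63) fell past 1.5-fold. The other endothelial genes tested, Kdr and Cdh5, showed no detected difference. Smooth muscle or pericyte genes summed to 2405 to 2541 CPM in control and 2970 to 3180 in miR182, with 3 of the 4 tested higher, and of the skeletal muscle list Acta1 alone was detected beyond 1 read (18.2 to 18.6 against 28.4 to 32.8 CPM), with Ckm, Myod1 and Myh4 at 0. The part of these shifts in the results below was not tested, and in bulk RNA fewer cells of a type and less RNA per cell cannot be told apart.

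Of the 10 genes, 7 fell with miR182, none rose, and for 3 no difference was detected (edgeR quasi-likelihood test, adjusted p under 0.05 over all 13117 genes). Cttn, Mitf, Rgs17 and Mtss1 also passed a change of at least 1.5-fold, the combination referred to here as called. Across all genes, 7.45% were called, 5.48% lower and 1.97% higher, against 4 of 10 in this set, all lower. With the adjusted p alone, 23.5% of all genes were lower and 23.2% higher, against 7 and 0 of the 10, and 46.7% changed in either direction. The miR182 samples lay wholly below the control samples for 7 of the 10 genes and wholly above for 1, beside 27.5% and 27.3% of all genes. The median log2 fold change of the set was -0.52, beside a median of -0.004 over all genes tested. The set was small and had been chosen with results of these data known, so these counts describe it and are not independent support for a difference from other genes.

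**Figure D2:**
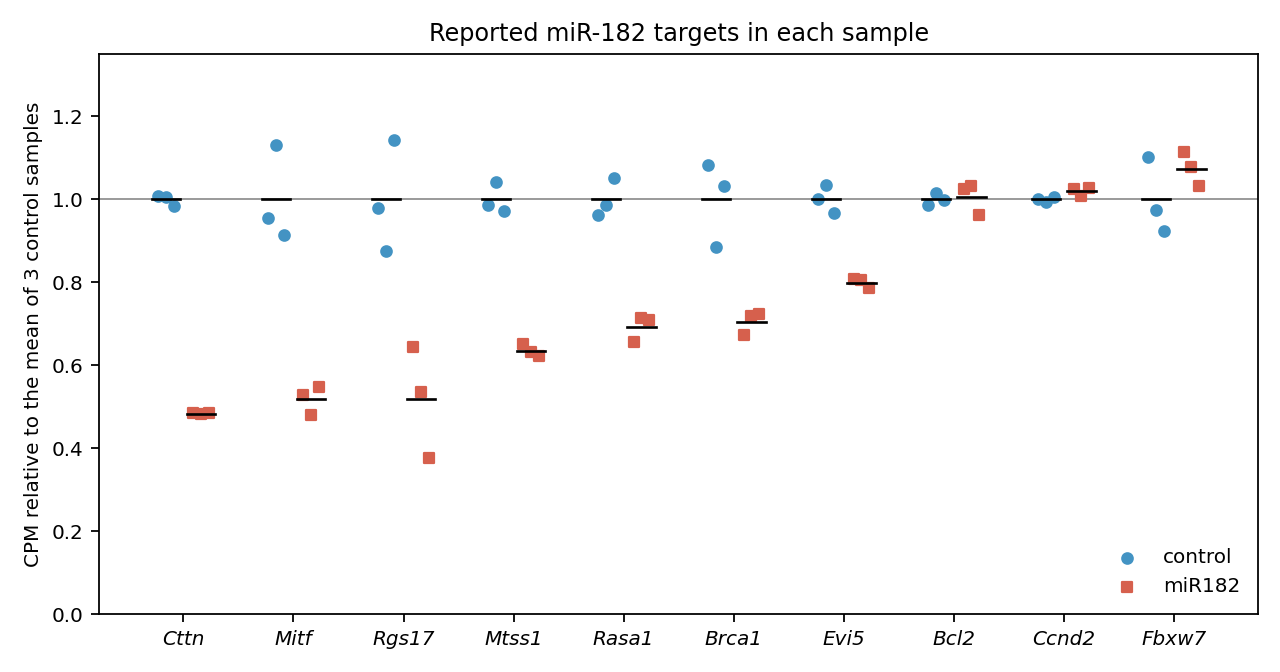
TMM-scaled CPM of each gene in each sample, divided by the mean of the 3 control samples (y axis, no unit), with circles for control, squares for miR182 and short lines for group means. The miR182 squares lie below all control circles for Cttn, Mitf, Rgs17, Mtss1, Rasa1, Brca1 and Evi5, and close to or above them for Bcl2, Ccnd2 and Fbxw7.

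Per kilobase of exon, Cttn and Ccnd2 were by far the most highly expressed of the 10 in control cells, at 74.0 ± 0.980 and 36.3 ± 0.243 RPKM (CPM per kilobase of exon, mean ± SD, n = 3). Rasa1 (8.498 RPKM), Evi5 (7.51) and Mitf (2.90) followed. Fbxw7 (2.16), Mtss1 (1.97), Brca1 (1.597), Bcl2 (0.683) and Rgs17 (0.590) were the lowest. The control ranges of neighbours in this order overlapped only for Fbxw7 with Mtss1 and for Bcl2 with Rgs17. The length takes in every annotated exon of a gene, and the order depends on it. For Mtss1 it was 11345 bases, against 4938 bases in the transcript used for its sites. In miR182 cells Cttn was at 35.6 to 35.9 RPKM and Ccnd2 at 36.6 to 37.3, so that Ccnd2 took the first place.

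Cttn encodes cortactin, which binds the Arp2/3 complex and stabilizes branched actin at the cell edge (chr7:144435733-144471009, minus strand). It showed the largest and the most precise decrease of the 10 genes. The 3 control samples held 313.0, 312.1 and 305.5 CPM and the 3 miR182 samples 150.4, 149.4 and 150.0 CPM. The groups were far apart, and the miR182 samples were almost equal to each other. The log2 fold change was -1.05 (SE 0.027, 95% interval -1.11 to -0.99, adjusted p = 2.1e-12 by edgeR), a fall of 51.7% that ranked 9 of 13117 genes by p. Its 3′ UTR of 1232 bases holds the 8-base site from base 848 and 1 further match TTGCCAA from base 260. The letters of the 8-base site occur in the 3′ UTR of both coding transcripts.

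Mtss1 encodes a protein that bends membranes and binds actin, known as missing in metastasis (chr15:58941234-59082005, minus strand). It held 22.1, 23.3 and 21.8 CPM in control and 14.6, 14.1 and 13.9 CPM in miR182. Every miR182 sample was below every control sample, with narrow spread in both groups. On the log2 scale the change was -0.66 (SE 0.059, interval -0.78 to -0.53, adjusted p = 6.5e-07). The interval reaches past the limit of 1.5-fold, which is 0.585 on this scale, so the size of the fall is less sure than its direction. Its 8-base site starts at base 1925 of 2196, near the end of the 3′ UTR, and follows TGCCAAA from base 270 and TTGCCAA from base 1087.

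The other genes of branched actin did not move as a group. Of 24 tested, none was called, 8 were lower and 7 higher by adjusted p, and their median log2 fold change was -0.002. Hcls1, the blood cell paralog of cortactin, was low and showed no detected difference (1.31 ± 0.239 CPM in control, 1.196 ± 0.195 in miR182, log2 fold change -0.14, adjusted p = 0.635). Mtss1l, the paralog of Mtss1, rose from 75.3 ± 5.54 to 106.3 ± 3.50 CPM (log2 fold change 0.50, SE 0.047, adjusted p = 1.01e-06), the opposite direction to Mtss1. Its 3′ UTR holds the 6-base core and no longer match.

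Mitf encodes the microphthalmia-associated transcription factor, the master regulator of pigment cells, which is also expressed in several other cell types (chr6:97807052-98021349, plus strand). In control the samples held 17.1, 20.3 and 16.4 CPM, and in miR182 9.45, 8.62 and 9.81 CPM. Control replicate 2 was the highest, and the lowest control sample was still well above the highest miR182 sample. The fall was 48.1% (log2 fold change -0.95, SE 0.088, interval -1.14 to -0.76, adjusted p = 8.9e-07). Without control replicate 2 it was -0.85 and Mitf was still called. Its 8-base site, from base 2766 of a 3′ UTR of 3174 bases, and its TGCCAAA at base 1820 lie in the 3′ UTR of 1 of 6 annotated coding transcripts, and the counts per gene do not say which transcript was present.

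The pigment genes that MITF controls in melanocytes were low or had no reads. Of the group, only 5 of 11 listed genes could be tested, none of them passed the adjusted p, and Tyr and Tyrp1 had no reads in any sample. Dct held 1.04 ± 0.116 CPM in control and 0.937 ± 0.297 in miR182, and Pmel 1.36 ± 0.426 and 1.41 ± 0.0577 CPM. Without miR182 replicate 2, Kit also passed the filter and was the 1 called gene of the list. The MITF paralogs Tfeb, Tfe3 and Tfec were not analysed here.

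Rgs17 encodes a regulator of G protein signaling that speeds GTP hydrolysis by Gi, Gz and Gq alpha subunits (chr10:5825663-5922400, minus strand). It was the lowest of the 10 genes per kilobase, with 122, 112 and 146 reads in control and 92, 69 and 52 in miR182. In CPM these were 4.79, 4.29 and 5.59 against 3.15, 2.62 and 1.84, with no overlap but a wide spread. The fitted change was -0.94 on the log2 scale (SE 0.171, interval -1.31 to -0.58, adjusted p = 0.000426), close to the value of Mitf but with the largest SE of the set, and the upper end of its interval was just short of 1.5-fold. It ranged from -1.14 to -0.75 when single samples were left out and stayed called. Its 3′ UTR, at 7290 bases the longest of the set, holds the 8-base site at base 222, TTGCCAA at bases 432 and 3008, and 3 further 6-base cores.

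Among 16 other RGS and alpha subunit genes tested, 1 was called lower and 2 higher, and the median log2 fold change was -0.03. Rgs2, which acts mainly on Gq, fell more than Rgs17: control samples held 31.9, 34.1 and 32.4 CPM and miR182 samples 10.4, 11.6 and 11.4 (log2 fold change -1.56, SE 0.062, adjusted p = 1.36e-10). Its 3′ UTR also holds an 8-base site, annotated in 1 of 2 coding transcripts. The site was added to those printed after the values of Rgs2 were seen.
Rgs2, chr1:144000134-144000163, minus strand: tttttatctatTTGCCAAAagaaatagtct
Rgs11 rose from 0.979 ± 0.0733 to 2.39 ± 0.0497 CPM (log2 fold change 1.28, adjusted p = 2.98e-05) and Rgs4 from 3.16 ± 0.447 to 4.83 ± 0.360 (0.61, adjusted p = 0.00146). Rgs4 kept its sign but missed 1.5-fold without control replicate 2 (0.50) and without miR182 replicate 1 (0.55). Of the closest relatives of Rgs17, Rgs19 rose slightly (0.22, adjusted p = 0.00116), and Rgs20, with 2 to 8 reads per sample, was too low to be tested.

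Rasa1 encodes p120 RasGAP, which returns RAS to its inactive state (chr13:85214780-85289130, minus strand). Control samples held 59.9, 61.4 and 65.4 CPM and miR182 samples 40.8, 44.4 and 44.1 CPM. The groups were clearly separate. Its log2 fold change was -0.53 (SE 0.048, interval -0.63 to -0.43, adjusted p = 6.7e-07), a fall of 30.7% that did not reach 1.5-fold. Rasa1 was the sole member with a pair of 8-base sites, at bases 69 and 334 of a 3′ UTR of 1324 bases. The letters TTGCCAAA occur in the 3′ UTR of each of its coding transcripts, and whether each transcript holds both sites was not examined. It shares 12 exon bases with Ccnh on the other strand.

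Of 15 other RAS genes and regulators tested, 4 were lower and 5 higher by adjusted p, with a median of 0.06. Sos2, an exchange factor that activates RAS, was the gene called: it rose from 23.2 ± 1.02 to 39.0 ± 0.831 CPM (log2 fold change 0.75, SE 0.051, adjusted p = 3.76e-08). The GTPase-activating relatives of Rasa1 went different ways, Rasa3 lower (-0.26, adjusted p = 1.52e-05), Rasa2 higher (0.20, adjusted p = 0.0104) and Nf1 slightly higher (0.09, adjusted p = 0.0314). Named after their values were seen, 2 further GTPase-activating genes changed: Rasa4 rose (0.48, adjusted p = 0.000204) and Dab2ip fell (-0.24, adjusted p = 0.000181). Of the list, Nf1 and Dab2ip hold an 8-base site in the 3′ UTR, and Nf1 did not fall while Dab2ip did.

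Evi5 encodes a TBC-domain protein that acts on RAB GTPases and on cell division (chr5:107744795-107875107, minus strand). It held 60.5, 62.6 and 58.4 CPM in control and 48.8, 48.7 and 47.5 CPM in miR182. All miR182 samples were below all control samples. The decrease was the smallest of the 7 that passed the adjusted p, at 20.1% (log2 fold change -0.32, SE 0.041, interval -0.41 to -0.24, adjusted p = 1.82e-05). The interval excludes a fall of 1.5-fold. Its single 8-base site lies at base 109, close to the stop codon of a 3′ UTR of 3351 bases. Evi5 shares 378 exon bases with a predicted gene on the other strand. Of 41 other TBC-domain and RAB11 genes tested, none was called, 9 were lower and 8 higher, with a median of -0.01. Evi5l, the paralog of Evi5, holds an 8-base site too and had a log2 fold change of -0.11 (SE 0.066, adjusted p = 0.191).

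Brca1 encodes a ubiquitin ligase subunit needed for the repair of DNA breaks by homologous recombination (chr11:101488764-101551955, minus strand). Control samples held 14.8, 12.1 and 14.1 CPM and miR182 samples 9.18, 9.79 and 9.85 CPM. Control replicate 2 was nearest to the miR182 samples but did not overlap with them. In the fit Brca1 was at -0.505 on the log2 scale (SE 0.084, interval -0.69 to -0.33, adjusted p = 0.000205), below 1.5-fold. Without control replicate 2 it was -0.586 and Brca1 was called. It was the sole gene of the 7 that fell without any match to miR-182-5p in its 3′ UTR.

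Of 17 genes of BRCA1 complexes tested, 3 were called, all lower, and 7 were lower and 2 higher by adjusted p (median -0.06). Bard1, the obligate partner of BRCA1, held 3.16 ± 0.396 CPM in control and 1.42 ± 0.421 in miR182 (log2 fold change -1.16, SE 0.199, adjusted p = 0.000272). Brip1, a helicase, fell from 5.38 ± 0.173 to 2.46 ± 0.310 CPM (-1.13, adjusted p = 5.35e-06). Bard1 holds a 6-base core and Brip1 no match. Many genes of this group are expressed mainly while cells replicate their DNA. The cycling markers moved in the same direction, from -1.04 for Mki67 and -0.92 for Top2a to -0.53 for Mcm2 and -0.25 for Pcna. Whether this had a part in the decrease of Brca1 was not tested.

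For 3 of the reported targets the level did not change detectably. Fbxw7 encodes the substrate receptor of an SCF ubiquitin ligase that degrades cyclin E, MYC and other regulators (chr3:84815268-84979198, plus strand). It held 16.8, 14.8 and 14.1 CPM in control and 17.0, 16.4 and 15.7 CPM in miR182. The groups overlapped. The fitted log2 fold change was 0.10 (SE 0.073, interval -0.05 to 0.26, adjusted p = 0.262), and in percent the interval ran from -3.54 to 19.8. The letters TTGCCAA occur in the 3′ UTR of 3 of 4 coding transcripts, and whether each of these holds both matches was not examined.

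Of 24 other SCF components and FBXW7 substrates tested, 2 were called lower, 5 were lower and 6 higher by adjusted p, and the median was 0.01. Skp2, another substrate receptor, fell from 11.95 ± 1.57 to 7.30 ± 0.511 CPM (-0.71, adjusted p = 4.75e-05). Ccne2, a cyclin E, was at 4.195 ± 0.689 and 2.62 ± 0.462 CPM (-0.69, adjusted p = 0.00271), and without control replicate 2 it was -0.54 and the list held 1 called gene. Fbxw11 (0.01, adjusted p = 0.841) and Btrc (-0.01, adjusted p = 0.904), the nearest relatives of Fbxw7 on the list, differed by less than their errors.

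Bcl2 encodes the founding member of the family that blocks the mitochondrial path of apoptosis (chr1:106538178-106714274, minus strand). Its level was low, at 6.17, 6.36 and 6.25 CPM in control and 6.41, 6.45 and 6.02 CPM in miR182. The groups overlapped, with miR182 replicate 3 the lowest of all. The log2 fold change was 0.01 (SE 0.090, interval -0.19 to 0.20, adjusted p = 0.951). In percent the interval ran from -12.02 to 14.9. The TTGCCAA and the TGCCAAA of Bcl2 are annotated in 1 of 2 coding transcripts, and Bcl2 shares 558 exon bases with an antisense gene. Of 13 other family members tested, none was called, and 4 were lower and 3 higher by adjusted p (median -0.13). Among the protective ones, Bcl2l2 rose (0.19, adjusted p = 0.000157), Mcl1 rose slightly (0.10, adjusted p = 0.0214) and Bcl2l1 was at 0.08 (adjusted p = 0.138).

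Ccnd2 encodes cyclin D2, which activates CDK4 and CDK6 in the first phase of the cell cycle (chr6:127125162-127152193, minus strand). It was measured with 8703 to 10227 reads per sample, at 341.9, 339.2 and 343.8 CPM in control and 350.3, 344.2 and 350.7 CPM in miR182. All miR182 samples were higher, with the lowest of them next to the highest control sample. The log2 fold change was 0.03 (SE 0.026, interval -0.03 to 0.08, adjusted p = 0.402), and in percent the interval ran from -1.9 to 6.03. Ccnd2 carries TGCCAAA, annotated in 1 of 3 coding transcripts, at bases 3498 and 3556 of a 3′ UTR of 5173 bases, and no longer match. It overlaps antisense genes over 372 and 368 exon bases, and the sources used here do not say whether the counting used the strand.

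The 3 D-type cyclins behaved differently. Ccnd3 held 64.5, 62.9 and 62.3 CPM in control and 23.7, 23.8 and 25.9 in miR182, a log2 fold change of -1.37 (SE 0.047, adjusted p = 2.96e-11). Ccnd1 rose slightly, from 73.0 ± 2.17 to 82.0 ± 5.94 CPM (0.17, adjusted p = 0.00998). Ccnd3 is the D-type cyclin with an 8-base site in its 3′ UTR, while Ccnd1 and Ccnd2 hold TGCCAAA at most. That site is annotated in 5 of 7 coding transcripts and was added to those printed after the values of Ccnd3 were seen.
Ccnd3, chr17:47599102-47599131, plus strand: aaccttctcagTTGCCAAAacgccccagta
Ccnd3 overlaps 361 exon bases of Bysl on the other strand. Of 20 G1 genes tested, 4 were called, all lower, and 9 were lower and 4 higher by adjusted p (median -0.14). Besides Ccnd3 and Ccne2 these were the CDK inhibitors Cdkn2c (99.5 ± 3.23 to 63.6 ± 3.78 CPM, -0.65, adjusted p = 3.22e-08) and Cdkn1c (2.80 ± 0.690 to 1.47 ± 0.185 CPM, -0.93, adjusted p = 0.0014). The fall of the cycling markers given above went with these genes as well, and its part in them was not tested.

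**Figure D3:**
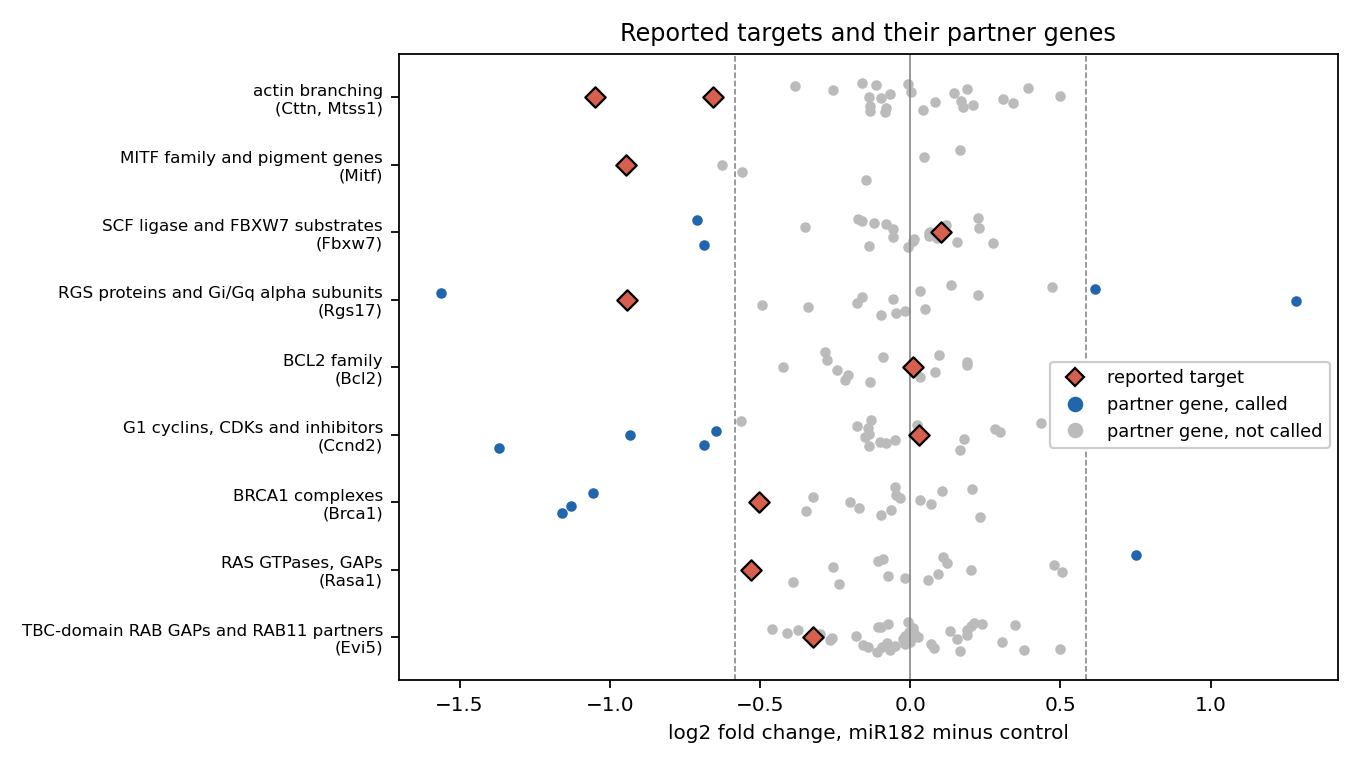
Log2 fold change (x axis) of the 10 reported targets (diamonds) and of the partner genes tested in each of 9 gene groups (points, blue where called), with 1 row per group and dashed lines at 1.5-fold. Cttn, Mtss1, Mitf and Rasa1 lie to the left of all tested genes of their groups, whereas Fbxw7, Bcl2 and Ccnd2 lie between 0.01 and 0.10, among the genes of theirs.

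Over all 9 groups, 172 partner genes were tested, 9 were called lower and 3 higher (6.98%, beside 7.45% of all genes), and their median was -0.04. The 16 with an 8-base site included 2 called lower, Ccnd3 and Rgs2, with 9 lower and 1 higher by adjusted p and a median of -0.26. The 156 without an 8-base site had 7 called lower and 3 called higher, 41 lower and 36 higher by adjusted p, and a median of -0.02. Among all 656 genes tested with an 8-base site, 17.4% were called lower and 47.6% were lower by adjusted p, with a median of -0.17.

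The 10 genes were then arranged by their best match. The 6 genes with an 8-base site were all lower, with a median of -0.80, and 4 of them were called. The 3 genes with shorter matches, Fbxw7, Bcl2 and Ccnd2, lay between 0.01 and 0.10. Brca1, without a match, was at -0.505. Rasa1 with a pair of 8-base sites was at -0.53, and Cttn with 1 and a further TTGCCAA was at -1.05.

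**Figure D4:**
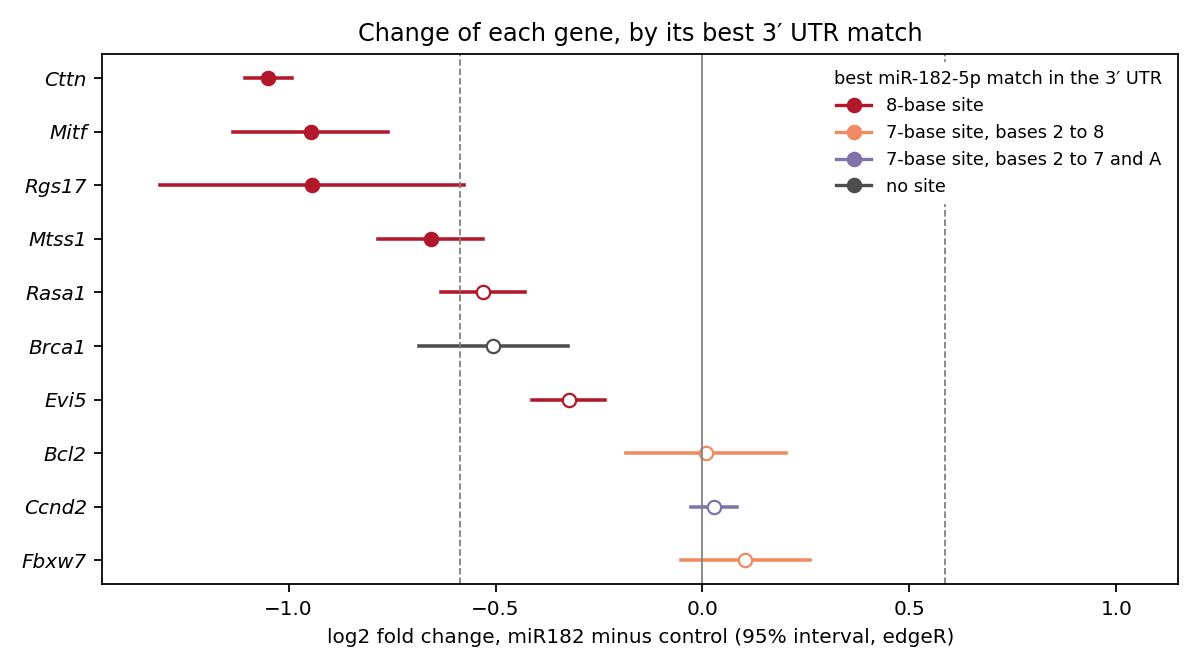
Log2 fold change of each gene, miR182 minus control (x axis), with its 95% interval from edgeR, coloured by the best miR-182-5p match in the 3′ UTR. Filled points were called, and dashed lines mark 1.5-fold. Intervals of all 6 genes with an 8-base site and of Brca1 lie below 0, and those of Bcl2, Ccnd2 and Fbxw7 include 0.

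The same classes over all genes give the setting. The 656 genes with an 8-base site had a median of -0.17, and 47.6% of them were lower by adjusted p and 17.4% called lower. Of these, the 37 genes with 2 or more 8-base sites had a median of -0.26 with 54.1% lower by adjusted p, and the 619 with 1 had -0.16 and 47.2%. For the 909 genes whose best match was TTGCCAA the median was -0.02, with 29.4% lower by adjusted p and 7.59% called lower. The 977 genes with TGCCAAA had a median of -0.04, the 1746 with the core alone 0.015 and the 8207 without any match 0.01, of which 20.9% were lower by adjusted p and 4.19% called lower. The 3′ UTRs of these classes also differed in length, with medians of 2620 bases for the 8-base genes and 825 for genes without a match.

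Within its class, Cttn stood below all but 5.49% of the 8-base genes, Mitf below all but 6.71%, Rgs17 6.86%, Mtss1 14.8%, Rasa1 22% and Evi5 34.8%. All 6 were thus on the lower side of the class median. Fbxw7 had 71.9% of the TTGCCAA genes below it and Bcl2 56.5%, and Ccnd2 had 62% of the TGCCAAA genes below it. Only 6.48% of the genes without a match were lower than Brca1. These positions are a description of the 10 chosen genes.

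**Figure D5:**
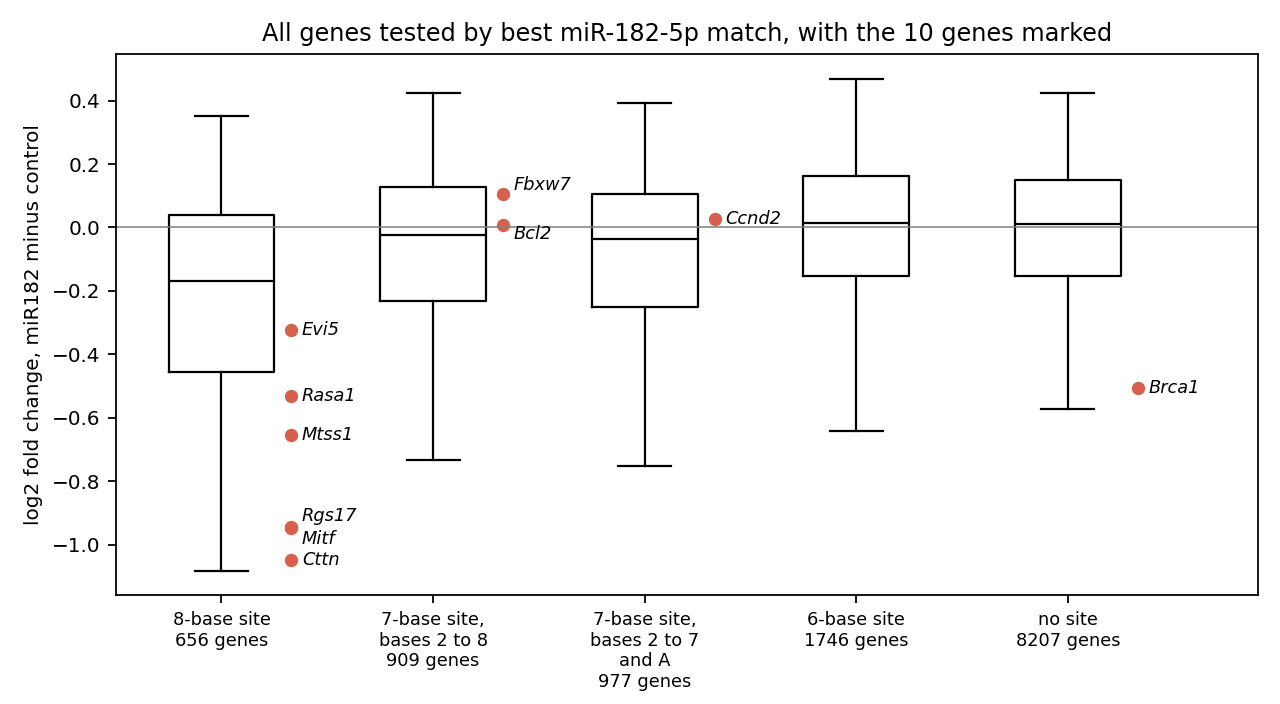
Log2 fold change, miR182 minus control (y axis), of the genes tested, split by best miR-182-5p match in the longest 3′ UTR, with the 10 reported targets as labelled points beside their class. Boxes span the quartiles with the median as a line, and whiskers reach the 5th and 95th percentiles. The 8-base class has its median at -0.17 and its 6 marked genes lie below that, and Brca1 lies far below the median of 0.01 of genes without a match.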

How the data were processed

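RNA-seq of 3 control and 3 miR182 samples was used. For each sample the authors deposited a list of counts, unnormalized, by gene symbol, made with TopHat2 and HTSeq on mm9 according to the submitters' processing notes; versions, annotation and strand setting are not given in the sources used here. The kit marks strand. The 5 tally lines per list were left out; of the reads aligned once, 12.7% to 13.0% overlapped no gene, and those ambiguous between genes were tallied apart. Between 25869810 and 28796712 gene reads per sample were available, and low genes such as Rgs17 have the widest intervals, which cover the spread between samples.

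Counts were fitted in R 4.3.3 with edgeR 4.0.16 (TMM scaling, filterByExpr with a minimum count of 10, two-sided glmQLFTest) and adjusted by Benjamini-Hochberg over 13117 genes. A gene was called at an adjusted p under 0.05 and at least 1.5-fold. The standard error was taken from the F statistic and the 95% interval from the t distribution on the fit's degrees of freedom. RPKM is TMM-scaled CPM per kilobase of GENCODE M21 exons. Symbols were matched to GENCODE M21 for 22132 of 22609 genes (1885 by an older symbol), and 12495 of the genes tested (95.3%) had a 3′ UTR. Within groups, samples differed by more than counting noise (chi-square per degree of freedom 2.13 to 7.19).

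The members and gene lists were chosen with earlier results of these data known. Named are the members, their listed paralogs, and up to 4 called genes per list with the smallest p. The sites of Rgs2 and Ccnd3 are printed in addition, chosen after their values were seen, and are no separate evidence. The values of 1 called gene of the BRCA1 list are not reported here. Alternatives were DESeq2 1.42.0, limma-voom (limma 3.58.1), DESeq2 or upper-quartile factors, no filter, 10 counts in every sample, a replicate block, leaving out each of 6 samples, other fold cutoffs and other site definitions. With 3 against 3 samples an exact permutation test cannot go below 0.1 and was not used. Python 3.11.15 with pandas 2.3.3 and matplotlib 3.10.9 made tables and figures.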

Additional observations from a re-analysis of the deposited data

How the results depend on the processing

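Across 13 alternative fits, Cttn, Mtss1, Mitf and Rgs17 were called in each, Rasa1 and Evi5 stayed under an adjusted p of 0.05 and short of 1.5-fold in each, and Fbxw7, Ccnd2 and Bcl2 were called in none. Brca1 stayed under the adjusted p in all 13 and passed 1.5-fold in 1, without control replicate 2 (-0.586), which made 5 genes called. The value of Bcl2, near 0, turned to -0.004 with upper-quartile factors and ranged from -0.005 to 0.043 when single samples were left out. Leave-one-out ranges were -1.06 to -1.04 for Cttn, -0.68 to -0.63 for Mtss1, -1.01 to -0.85 for Mitf, -1.14 to -0.75 for Rgs17, -0.56 to -0.49 for Rasa1, -0.35 to -0.30 for Evi5, -0.586 to -0.444 for Brca1, 0.05 to 0.18 for Fbxw7 and 0.02 to 0.04 for Ccnd2. With a 2-fold cutoff 1 of the 10 genes (Cttn) and 6 partner genes were called, and with no fold cutoff 7 and 87, in place of 4 and 12. For partner genes the count was 10 to 13 in the fits across all genes.

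The labels number the samples 1 to 3 in both groups. After removing group means, the correlation between control and miR182 samples of one number was -0.185, -0.044 and -0.079. For unlike numbers it was -0.056 to 0.119. No pairing by number was thus detected, but 3 samples per group cannot exclude a shared mouse or culture. With the replicate block 925 genes were called in place of 977, and 4 of the 10 genes and 12 partner genes as before.

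In site definitions, 6 of the 10 genes held an 8-base site, 8 the 7-base match and 9 the core, and 8 held the 7-base match in any transcript. Depth limits the low genes: Rgs17 had 52 to 146 reads per sample and an SE of 0.171, and Rgs20, with 2 to 8 reads, could not be tested.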

Other observations

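The mature sequence printed for miR-182-5p in the methods of the study is that of a miR-30 family member, so the miR-30 seed was searched in the same way. That member, miR-30b-5p, was not found in the miRNA reference used. Shown instead is miR-30a-5p from RefSeq (GRCm38.p6, chr1:23272274-23272295, plus strand), with its seed in capitals. It shares the seed of the printed sequence and differs from it further on.
miR-30a-5p: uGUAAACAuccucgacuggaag
The match TGTTTAC was present in the 3′ UTR of 3 of the 10 genes, Rgs17 with 3 matches, Rasa1 with 1 and Evi5 with 1, against 16.4% of the genes tested. In Evi5 it starts at base 84, just before the miR-182-5p site at base 109. All 3 genes also hold a miR-182-5p 8-base site, so their values do not separate the miRNAs. Cttn, Mitf and Mtss1 hold no miR-30 match in the 3′ UTR and fell. In the coding sequence of the transcript used, Rasa1 and Fbxw7 each hold 2 matches TGTTTAC. Over all genes, the 829 with a miR-30 8-base site and no TTGCCAA had a median log2 fold change of 0.06. Of them 4.1% were called lower, against 4.72% of the 9324 genes with neither match, whose median was -0.002. The median 3′ UTR lengths of these groups were 2221 and 918 bases. Whether a miR-30 match had a part in any change was not tested. Which sequence was delivered was not tested, since mature miRNAs are not in these libraries.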
